A study of Saccharomyces cerevisiae with 24 samples.

Results

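The proteasome of budding yeast (Saccharomyces cerevisiae) is described here through 39 genes: 28 structural subunits, 9 assembly chaperones, the adaptor gene ECM29 (YHL030W) and RPN4 (YDL020C), which encodes the transcription activator of proteasome genes. The 39 are among 5843 genes of the haploid and 5730 of the diploid count table, and all 39 were matched by their systematic names to the R64 annotation, which gives their symbols. The genes are 5 of the 20S alpha ring, 6 of the beta ring, 6 ATPases, 4 other base subunits and 7 lid subunits of the 19S cap, 5 chaperones of 20S and 4 of 19S assembly, ECM29 and RPN4. They were chosen by annotated function and by position, with genes on chromosomes VI and XIII left out because the measured levels of those chromosomes are raised in some libraries. RPN4 and its targets were also singled out with results of these data in view, so the calls below describe these libraries and are no independent support for the choice.

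The proteasome is the protease that degrades proteins tagged with ubiquitin. Its 20S core is a barrel whose outer alpha rings gate the entry and whose inner beta rings hold the proteolytic sites. The 19S cap has a base, with a ring of ATPases that unfold the substrate, and a lid that removes ubiquitin. Rpn4 binds the proteasome-associated control element (PACE) upstream of most subunit genes, and the proteasome degrades Rpn4 quickly, which makes a feedback loop. Only mRNA was measured here, not the Rpn4 protein or proteasome activity.

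Poly(A) RNA was sequenced from 8 strains in log phase in rich glucose medium (YPD) at 25 °C, with 3 libraries per strain and 24 in all. The haploid strains Ca, N2, Sc[At], Sc[Sp] and Sc[Ca] are described by the submitters as expressing different actins, and the haploid ScNI is their wild type; the labels do not spell out the strain names. The diploid strain N2/Ca is set against the diploid wild type Sc/Sc. The sources used here give neither the promoter of each introduced actin, nor the number of clones behind a strain, nor whether replicates were separate cultures. P-values therefore measure the spread between these libraries, which in the diploids may be technical; the haploid libraries of a strain differed in mating type, as given next.

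The haploid libraries held 10228523 to 15403081 counted reads, and the diploid ones 12128284 to 15134814. ACT1, the yeast actin gene, lay between 9.43 and 173 normalised counts in the libraries of Sc[At], Sc[Sp] and Sc[Ca] and between 8638 and 15314 in those of Ca and N2, against 18397 to 18549 in ScNI; in N2/Ca it lay between 13048 and 15859, against 21885 to 26900.4 in Sc/Sc. Replicate 2 of every haploid strain showed the MATalpha mating-type pattern and replicates 1 and 3 the MATa pattern, so that strain means are balanced for it: STE3 was at 6546 to 9169 in replicate 2 against 34.8 to 202 in the others. Of the 39 genes, 0 differed between replicate 2 and the others in limma's test (0.499% of all genes did; 1 of the 39 had an unadjusted p under 0.05). The median gene of chromosomes VI and XIII stood well above ScNI in the 3 N2 libraries and in Ca replicates 1 and 2, and above Sc/Sc in N2/Ca replicate 1. Chromosome XI, which carries RPT1 and ADD66, was raised by 0.53 (log2) in Ca replicate 1. Medians of the other chromosomes lay between −0.16 and 0.19 in all libraries other than wild type. Normalised counts are relative to the other mRNAs of the same library, and a change in mRNA per cell cannot be told apart from one in the rest of the pool.

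The sites by which Rpn4 is known to act are common upstream of these genes. The PACE letters GGTGGCAAA, searched on both strands in the 300 bases upstream of the start codon of R64 (RefSeq), were found for 24 of the 39 genes (61.5%), against 73 of 6001 nuclear protein-coding genes (1.22%). The 24 are 23 of the 28 subunit genes and ECM29. No exact match lay in that window of PUP1, RPN10, RPN13, RPN8, SEM1, the 9 assembly chaperones or RPN4 itself. A match is a description of the letters and was not tested as a binding site here. The windows below are those of 8 subunit genes whose mRNA fell in several of the comparisons that follow. They are given 5′ to 3′ on the strand of the gene, with PACE, or its reverse complement TTTGCCACC, in capitals.
SCL1 (chrVII:475327-475375, minus strand): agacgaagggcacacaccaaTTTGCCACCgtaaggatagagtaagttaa
PUP2 (chrVII:999216-999264, minus strand): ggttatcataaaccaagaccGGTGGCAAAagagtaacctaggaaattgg
PRE3 (chrX:435025-435073, plus strand): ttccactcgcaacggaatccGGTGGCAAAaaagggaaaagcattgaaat
RPT2 (chrIV:437896-437944, plus strand): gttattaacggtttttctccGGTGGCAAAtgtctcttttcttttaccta
RPT6 (chrVII:411342-411390, minus strand): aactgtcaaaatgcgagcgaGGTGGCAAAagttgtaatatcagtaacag
RPN3 (chrV:196833-196881, plus strand): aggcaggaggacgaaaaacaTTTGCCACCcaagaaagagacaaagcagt
RPN6 (chrIV:286780-286828, minus strand): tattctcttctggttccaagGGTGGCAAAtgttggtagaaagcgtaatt
RPN9 (chrIV:1322076-1322124, plus strand): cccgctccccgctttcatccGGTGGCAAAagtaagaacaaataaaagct
In these 8 windows the element began 84 (RPT6) to 131 (RPT2) bases before the start codon, and it lay in reverse orientation in SCL1 and RPN3. The stretch of DNA upstream of RPN4 holds other elements. It is shown because genes that encode factors binding such letters, PDR1, PDR3 and YAP1, are described with the regulators below. Capitals mark, in order, the letters TCCGTGGA (a variant of the pleiotropic drug resistance element bound by Pdr1 and Pdr3), their reverse complement, and TTACTAA (the Yap1 response element).
RPN4 upstream region (chrIV:417056-417170, minus strand): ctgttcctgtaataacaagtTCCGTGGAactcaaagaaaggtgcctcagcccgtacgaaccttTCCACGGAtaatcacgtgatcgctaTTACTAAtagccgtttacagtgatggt
The 3 matches begin 442, 399 and 374 bases before the start codon. Within 600 bases upstream, and counted on both strands, TCCGTGGA was present for 78 of 5999 genes (1.30%) and TTACTAA for 820 (13.7%).

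RPN4 (YDL020C, R64 chrIV:415113-416708, minus strand) was higher than in ScNI in 4 of the 5 haploid strains with another actin, by 1.55 to 1.91 times, and it was close to ScNI in Sc[Ca]. In the diploid N2/Ca it was lower than in Sc/Sc. RPN4 was at 3079, 3489.9 and 3456 normalised counts in replicates 1, 2 and 3 of N2, at 2728, 2921 and 2839.9 in Ca, at 2859.7, 2950.0 and 2392 in Sc[At] and at 2790.5, 2804 and 2557 in Sc[Sp]. It was at 1579, 1686 and 1592 in Sc[Ca], against 1672, 1762 and 1808 in ScNI. The libraries thus fell into separate groups, since the lowest of the 12 libraries of N2, Ca, Sc[At] and Sc[Sp] (2392) was above the highest of the 6 of Sc[Ca] and ScNI (1808). RPN4 rose by log2 0.93 in N2 (SE 0.08; limma adjusted p = 1.6e-05), 0.70 in Ca (0.0001), 0.64 in Sc[At] (0.0005) and 0.64 in Sc[Sp] (0.00035). These are fold changes of 1.91, 1.62, 1.56 and 1.55, and all share the same 3 ScNI libraries. The value for Sc[Ca] was −0.11 (SE 0.08; limma adjusted p = 0.95).

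In the order of mean levels, N2 was followed by Ca, Sc[At], Sc[Sp], ScNI and Sc[Ca]. Every N2 library was above every Ca library, but the difference, log2 −0.24 for Ca against N2, did not pass the test (SE 0.08; limma adjusted p = 0.29). Sc[At] and Sc[Sp] overlapped (log2 0.00, limma adjusted p = 0.98). RPN4 was higher in Ca than in Sc[Ca] by log2 0.81 (SE 0.08; limma adjusted p = 2.7e-05). Across all alternative settings the 4 haploid increases kept their direction and stayed past the threshold.

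In the diploids the direction was the opposite. RPN4 was at 1906, 1710.4 and 1645 normalised counts in N2/Ca, against 2831, 2772 and 2337 in Sc/Sc, and the libraries did not overlap. It fell by log2 0.59 in N2/Ca (fold 0.66, SE 0.12; limma adjusted p = 0.015). Without N2/Ca replicate 2 or 3 the adjusted p was 0.075 or 0.085, with log2 −0.57 and −0.55. The 2 tables were normalised separately, so the difference between the haploid and diploid effects was not tested.

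**Figure D1:**
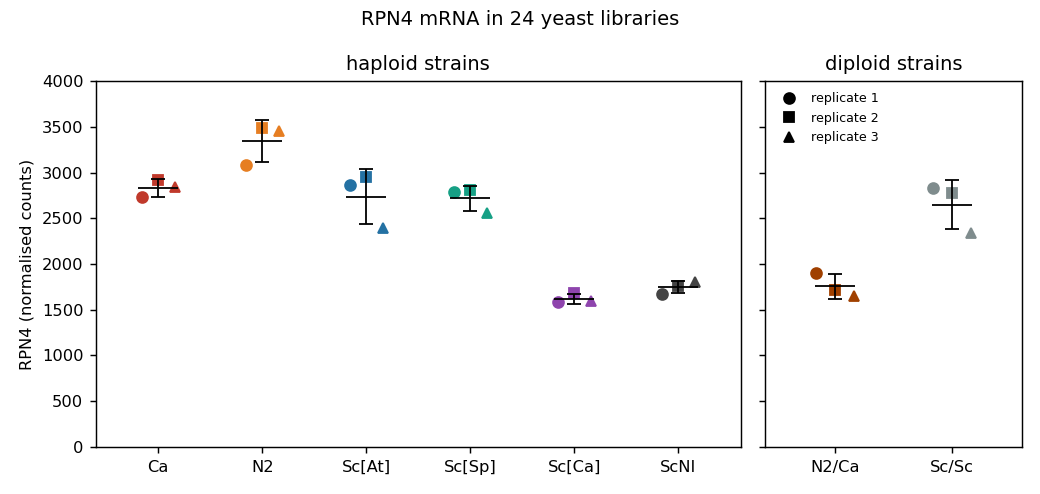
RPN4 mRNA in each of the 24 libraries, in normalised counts on a linear axis from 0, by strain (haploid table left, diploid table right). Symbols are replicates 1 to 3 and black bars the mean ± SD; N2, Ca, Sc[At] and Sc[Sp] stand above ScNI without overlap, and N2/Ca stands below Sc/Sc.

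In the 4 haploid strains where RPN4 rose, the genes of the set that fell were mostly subunit genes: 21 of the 28 in Ca, 15 in N2, 18 in Sc[At] and 12 in Sc[Sp]. In Ca 23 of the 39 genes fell and 1, RPN4, rose, where 14.2% of all 5808 genes tested fell and 16% rose. In N2 18 fell and RPN4 rose (all genes: 12.6% and 16.5%). In Sc[At] 19 fell and RPN4 rose (all genes: 6.82% and 8.44%). In Sc[Sp] 14 fell and RPN4 rose (all genes: 10.9% and 10.1%). In either direction 30.2% of all genes were called in Ca, 29.1% in N2, 15.3% in Sc[At] and 21% in Sc[Sp]. The changes were small: the median over the 38 genes other than RPN4 was log2 −0.27 in Ca, −0.23 in N2, −0.25 in Sc[At] and −0.15 in Sc[Sp], while the median of all genes tested was between −0.02 and 0.00 in each. All genes tested include those of chromosomes VI and XIII, which the 39 leave out. With each chromosome's median subtracted, the median over the 38 was −0.22 in Ca, −0.16 in N2, −0.25 in Sc[At] and −0.14 in Sc[Sp]. The libraries of a strain did not overlap those of ScNI for 31 of the 39 genes in Ca (40.7% of all genes), 29 in N2 (50%), 33 in Sc[At] (42.5%), 26 in Sc[Sp] (57.6%) and 18 in Sc[Ca] (36.6%). In limma's F test across the 6 haploid strains together, 28 of the 39 genes passed, a share of 71.8% beside 60.6% of all genes.

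The counts depend on single libraries. Without ScNI replicate 2 the count of lower genes was 13 in Ca, 10 in N2, 12 in Sc[At] and 2 in Sc[Sp]; it was 12 in Sc[At] without Sc[At] replicate 1, 11 and 8 in N2 without N2 replicates 2 and 3, and between 3 and 8 in Sc[Sp] without each of its other 5 libraries. In the 6 libraries of Ca and ScNI alone 1 gene fell in Ca, and with each chromosome's median subtracted in each library the counts were 16 in Ca, 11 in N2 and 10 in Sc[Sp]. No call among the 39 changed its sign under any setting.

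Decreases that passed in every fit with 1 library left out were fewer. In Ca these were 12 (SCL1, PRE6, PRE3, PRE7, RPT2, RPT5, RPT6, RPN1, RPN3, RPN6, RPN7 and RPN8). In N2 they were 8 (SCL1, PUP2, PRE3, RPT2, RPT5, RPT6, RPN9 and RPN14), in Sc[At] 12 (SCL1, PRE1, PRE3, RPT2, RPT3, RPT6, RPN3, RPN5, RPN6, RPN7, RPN8 and RPN9) and in Sc[Sp] 2 (PUP2 and PRE3). The other decreases lost the call without at least 1 library, with adjusted p of up to 0.14 in Ca, 0.16 in N2, 0.12 in Sc[At] and 0.21 in Sc[Sp] in limma.

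**Figure D2:**
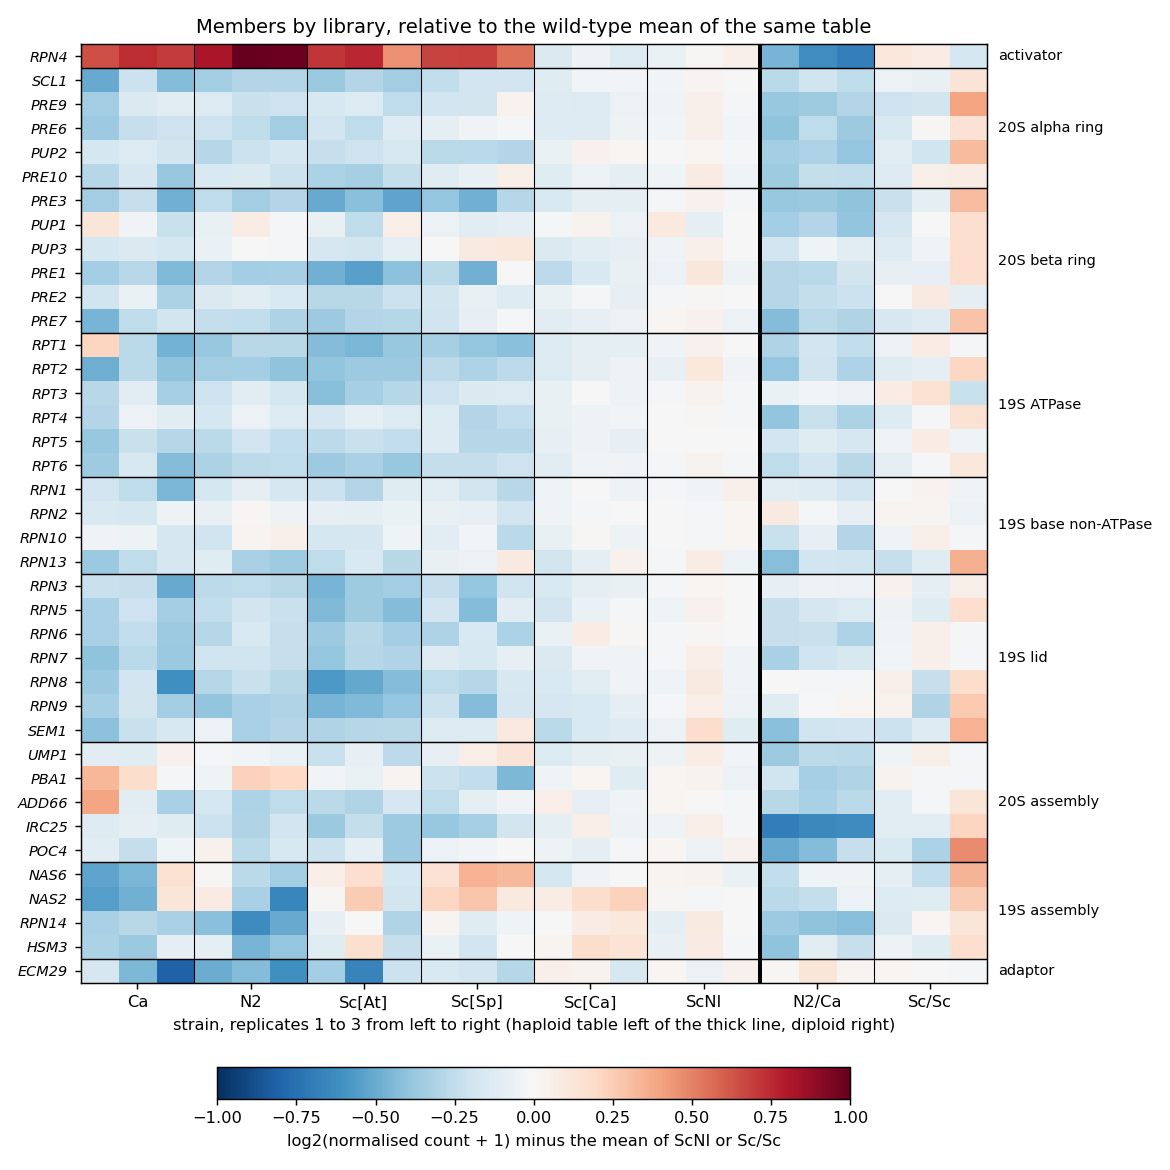
The 39 genes (down the page, grouped by role) in 24 libraries (3 per strain, haploid table left of the thick line), coloured by log2(normalised count + 1) minus the mean of ScNI for haploids and of Sc/Sc for diploids. RPN4 is red in Ca, N2, Sc[At] and Sc[Sp] where most subunit genes are blue, and it is blue in N2/Ca together with them.

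The 5 alpha-ring genes (SCL1, PRE9, PRE6, PUP2 and PRE10) fell in part: 4 of 5 in Ca, 3 in N2, 3 in Sc[At] and 2 in Sc[Sp]. SCL1 (YGL011C), which encodes the alpha1 subunit (R64 chrVII:474489-475247), was at 3460.2, 4219.8 and 3630.0 normalised counts in Ca, 3862, 4007 and 4010.2 in N2, 3796, 4003 and 3854 in Sc[At] and 4147, 4295 and 4302 in Sc[Sp], against 4824, 4992 and 4916 in ScNI. No library of the 4 strains reached the lowest ScNI library. Its call in Sc[Sp] was lost without any 1 of the 6 libraries (limma adjusted p 0.083 to 0.13). The changes of SCL1 were log2 −0.39, −0.31, −0.34 and −0.21 (SE 0.07 each; limma adjusted p = 0.0019, 0.006, 0.0076 and 0.0497, in that order). PUP2 (alpha5) fell in these 4 strains too, with log2 changes of −0.17, −0.23, −0.20 and −0.28. The PUP2 calls in Ca and Sc[At] were each lost in 5 of 6 fits with 1 library left out (limma adjusted p 0.053 to 0.12). PRE9 (alpha3), the only alpha subunit that yeast can do without, did not pass in any, with values between −0.20 (Ca) and −0.11 (Sc[Sp]).

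Of the 6 beta-ring genes, 5 fell in Ca, 3 in N2, 4 in Sc[At] and 1 in Sc[Sp]. PRE3 (YJL001W) encodes beta1, a proteolytic subunit that cuts after acidic residues (R64 chrX:435163-435926). PRE3 was at 2602, 2811 and 2366 in Ca, 2774, 2598 and 2699 in N2, 2329.5, 2473 and 2297 in Sc[At] and 2527, 2367 and 2708 in Sc[Sp], against 3253, 3402 and 3259 in ScNI. All 12 libraries were below ScNI, and the changes were log2 −0.35, −0.30, −0.48 and −0.38 (SE 0.07; limma adjusted p = 0.0037, 0.0087, 0.0015 and 0.0034, in that order). PRE2, which encodes the chymotrypsin-like subunit beta5, fell by log2 0.19 in Ca and 0.26 in Sc[At]. Both PRE2 calls were lost in 5 of 6 fits with 1 library left out (limma adjusted p 0.055 to 0.11). PRE1 (beta4) fell in Ca (−0.35), N2 (−0.32) and Sc[At] (−0.48). Its call was lost in 4 of 6 such fits in N2 (limma adjusted p 0.051 to 0.12) and in 1 in Ca (0.082). PUP1, which encodes the trypsin-like subunit beta2 and has no PACE match, was at 2969.7, 2658 and 2337 in Ca and 2590.3, 2863 and 2684 in N2, against 2918, 2550.1 and 2720.0 in ScNI, and its groups overlapped (log2 −0.04 and −0.01; limma adjusted p = 0.75 and 0.96).

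The ATPases of the base, RPT1 to RPT6, fell in 4 of 6 cases in Ca, 3 in N2, 5 in Sc[At] and 5 in Sc[Sp]. RPT2 (YDL007W, R64 chrIV:438047-439360), whose product helps to open the gate of the core, was at 4543, 5284 and 4822 in Ca, 5005, 5037 and 4828 in N2, 4856, 4949 and 4968 in Sc[At] and 5332, 5143 and 5332 in Sc[Sp], against 6058, 6886 and 6237 in ScNI. The changes of RPT2 were log2 −0.39, −0.37, −0.37 and −0.28 (SE 0.07; limma adjusted p = 0.0015, 0.0021, 0.0046 and 0.014, in that order), with no overlap between the strains and ScNI. Without ScNI replicate 2 or Sc[Sp] replicate 2 the adjusted p in Sc[Sp] was 0.068 and 0.058. RPT1, on chromosome XI, fell in Sc[At] (−0.42) and Sc[Sp] (−0.38; adjusted p = 0.0501 with a replicate block in limma). With 1 library left out, the RPT1 call was lost in 6 of 6 fits in Sc[Sp] and in 5 of 6 in Sc[At] (limma adjusted p 0.066 to 0.11). RPT1 was at 7941, 5657 and 4925 in Ca, against 6654, 7056 and 6802 in ScNI, and did not pass (log2 −0.18, limma adjusted p = 0.28). Ca replicate 1, the library with chromosome XI raised, held the highest RPT1 value of the 18 haploid libraries. Without it RPT1 was lower in Ca by log2 −0.37 (limma adjusted p = 0.0055). Without Ca replicate 2 or 3 or any 1 ScNI library RPT1 did not pass (limma adjusted p 0.33 to 0.84). Whether the raised chromosome bears on RPT1 was not tested.

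The other base genes passed the test in fewer cases than the ATPases. RPN1 and RPN13 fell in Ca (log2 −0.30 and −0.26) and RPN13 in N2 (−0.27), and 0 of the 4 passed in Sc[At] or Sc[Sp] (limma; with an unadjusted p under 0.05 were 2 and 1). The RPN13 calls in Ca and N2 were each lost in 5 of 6 fits with 1 library left out (limma adjusted p 0.051 to 0.14). RPN2, which encodes the other large scaffold protein of the base beside Rpn1, was at 6928, 6821 and 7441 in Ca, against 7733, 7593 and 7804 in ScNI (log2 −0.13, limma adjusted p = 0.12). RPN10, like RPN13 a gene for a ubiquitin receptor, had values between −0.14 (Sc[Sp]) and −0.04 (N2) and did not pass in any strain.

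The lid genes fell in most cases. Of the 7, 6 fell in Ca, 5 in N2, 6 in Sc[At] and 4 in Sc[Sp], and the group medians were log2 −0.31, −0.23, −0.39 and −0.24. RPN8 (YOR261C, R64 chrXV:815915-816931), whose product pairs with the deubiquitinase Rpn11, was at 3259, 3387 and 3586 in Sc[At], against 4699, 5151 and 4688 in ScNI, the lowest value of any subunit in the comparisons with a wild type (log2 −0.51, SE 0.09; limma adjusted p = 0.0042). RPN8 also fell in Ca (−0.39) and N2 (−0.26; limma adjusted p = 0.041, and 0.052 with the replicate block), and it has no PACE match in its window. The RPN8 call in N2 was lost without any 1 of the 6 libraries (limma adjusted p 0.07 to 0.16). RPN9 was at 2723, 2867 and 2906 in N2, against 3563, 3748 and 3448 in ScNI (log2 −0.34, limma adjusted p = 0.0053). RPN3, RPN6 and RPN9, which encode structural lid subunits, fell in all 4 strains by log2 0.22 (RPN6 in N2) to 0.43 (RPN9 in Sc[At]). With 1 library left out, RPN3 and RPN6 in N2 each lost the call in 5 of 6 fits (limma adjusted p 0.054 to 0.077). In Sc[Sp] the 3 genes lost it in 4 or 5 of 6 (0.052 to 0.12), and RPN9 in Ca lost it in 1 (0.055). RPN5 fell in Ca (−0.29), Sc[At] (−0.41) and Sc[Sp] (−0.24; adjusted p = 0.066 with the replicate block in limma). The RPN5 call was lost in 5 of 6 such fits in Sc[Sp] (limma adjusted p 0.075 to 0.21) and in 2 in Ca (0.054 and 0.063). SEM1, the gene of the smallest subunit, did not pass in any comparison and was at 1179, 1189.6 and 1199 in Sc[At], against 1396, 1646 and 1337 in ScNI.

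**Figure D3:**
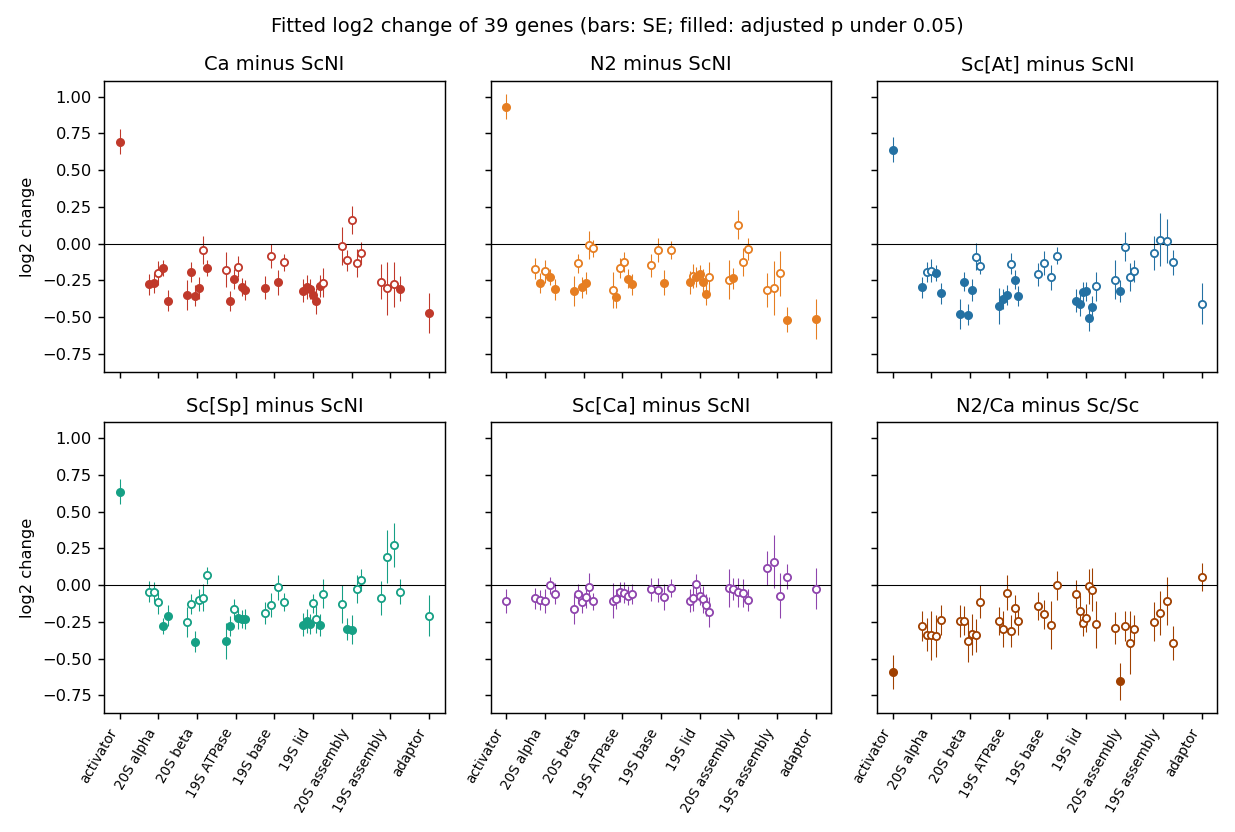
Fitted log2 change of each of the 39 genes (points, grouped by role along the x axis) in 6 comparisons, with SE as bars; filled points passed limma's test at an adjusted p under 0.05. The activator point (RPN4) is high in Ca, N2, Sc[At] and Sc[Sp] while subunit points lie mostly between 0 and −0.5, and the Sc[Ca] panel has no filled point.

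The 9 assembly chaperones, which build the 20S rings or the ATPase ring and leave before the proteasome is finished, were expressed below most subunits. Per kilobase of coding length, the median in ScNI was 823 normalised counts for the chaperones and 4434 for the subunits. Of the 9, 1 fell in Ca, 2 in N2, 1 in Sc[At] and 2 in Sc[Sp]. IRC25, whose product pairs with Poc4 to assemble the alpha ring, was at 452, 425 and 458 in N2, 404, 445 and 408 in Sc[At] and 403, 415 and 461 in Sc[Sp], against 509, 548 and 517 in ScNI. It fell in these 3 strains (log2 −0.24, −0.32 and −0.30; limma adjusted p = 0.028, 0.012 and 0.014), and in Ca it was at 480.3, 491 and 482 and did not pass (−0.11). PBA1, an alpha-ring chaperone gene, fell in Sc[Sp] (648, 637 and 553, against 766, 771 and 726 in ScNI; log2 −0.30, limma adjusted p = 0.04). The PBA1 call was lost without any 1 of the 6 libraries (limma adjusted p 0.056 to 0.14). The IRC25 call in N2 was lost in 4 of 6 fits with 1 library left out (limma adjusted p 0.06 to 0.11). In Sc[At] the IRC25 call was lost in 2 of 6 (0.058 and 0.059), and in Sc[Sp] in 3 of 6 (0.054 to 0.056). UMP1, the maturation factor of the core, did not pass in any comparison and lay between log2 −0.19 (Sc[At]) and 0.04 (Sc[Sp]) in the haploids. ADD66, on chromosome XI, was at 909, 639 and 554 in Ca, high in replicate 1 alone, against 700.4, 689 and 688 in ScNI.

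Among the chaperones of the ATPase ring, RPN14 fell in N2 (569.7, 491 and 535, against 713, 811 and 759.6 in ScNI; log2 −0.52, limma adjusted p = 0.00094) and Ca (608, 627 and 608; −0.31, 0.016). NAS6, NAS2 and HSM3 did not pass in any comparison with a wild type, and their replicates differed within N2 and Ca. NAS6 was at 628, 658 and 1006 in Ca and 911, 751 and 710.4 in N2, against 920.3, 927 and 865 in ScNI. NAS2 was at 249, 261 and 396 in Ca and 386, 290.5 and 231 in N2, against 367, 361 and 366 in ScNI. For both genes the highest library was Ca replicate 3 and N2 replicate 1, the ones of their strains in which chromosomes VI and XIII were raised least, and whether the 2 are linked was not tested. In Sc[Sp] NAS6 was at 999, 1150.0 and 1133, above all ScNI libraries (log2 0.27, limma adjusted p = 0.21).

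ECM29, the gene of an adaptor that holds core and cap together, had the lowest level per kilobase of the 39 genes in ScNI (319.5). It was at 1597, 1314 and 1024 in Ca and 1269, 1329 and 1173 in N2, against 1813, 1718 and 1844 in ScNI. ECM29 fell in both (log2 −0.47 and −0.51, SE 0.14; limma adjusted p = 0.019 and 0.013), and the Ca libraries spread the most. Its adjusted p was 0.063 in N2 without N2 replicate 3, and 0.056 and 0.06 in Ca without ScNI replicates 1 and 3. In Sc[At] it was at 1415, 1129 and 1542 and did not pass (log2 −0.41, limma adjusted p = 0.06).

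Sc[Ca] gave no call. In limma 0 of the 39 genes passed and 0 had an unadjusted p under 0.05, edgeR and DESeq2 each called 0, and 0.0172% of all genes passed. The median over the 38 genes other than RPN4 was log2 −0.07, with 34 of 38 below 0. The lowest value was that of SEM1 (log2 −0.18, SE 0.10), at 1208, 1307 and 1326 in Sc[Ca] against 1396, 1646 and 1337 in ScNI. In a direct comparison of Ca with Sc[Ca], 16 of the 39 genes were lower in Ca and 1, RPN4, was higher (19% and 20.6% of all genes, and 39.7% in either direction). RPN6 was at 3964, 4203 and 3876 in Ca and 4749.9, 5249 and 5026 in Sc[Ca] (log2 −0.32, limma adjusted p = 0.0023). In this comparison 10 genes passed without Sc[Ca] replicate 2 or 3, and 11 with chromosome medians subtracted.

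The other direct comparisons found few differences. Of the 39 genes, 3 were lower in Sc[At] than in Sc[Sp] (5.25% of all genes were) and 0 higher (8.21%; in either direction 13.5%). They were PRE10 (3755, 3699 and 3947 in Sc[At] and 4288, 4439 and 4871 in Sc[Sp]; log2 −0.25, limma adjusted p = 0.034), PUP3 (−0.22, 0.025) and RPN7 (−0.20, 0.049). The count was 0 without Sc[At] replicate 1 or Sc[Sp] replicate 3, 1 without Sc[At] replicate 3 or Sc[Sp] replicate 2, 7 with chromosome medians subtracted and 8 with DESeq2. Between Ca and N2, 0 of the 39 passed in limma, edgeR and DESeq2, and 4 had an unadjusted p under 0.05 in limma, where 0.517% of all genes passed (0.413% higher and 0.103% lower in Ca).

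In the diploid N2/Ca most proteasome genes were also below the wild type, but only RPN4 and IRC25 passed, both lower (5.76% of all genes fell, 8.59% rose and 14.4% did either). The groups did not overlap for 26 of the 39 genes (43.6% of all genes). The median over the 38 genes other than RPN4 was log2 −0.25, with 37 of 38 below 0. IRC25 (YLR021W, R64 chrXII:183623-184162) was at 426, 439 and 446 in N2/Ca, against 640.0, 638 and 802 in Sc/Sc (log2 −0.66, SE 0.13; limma adjusted p = 0.014). Its partner POC4 was at 185, 194 and 223 in N2/Ca, against 236, 210.5 and 365 in Sc/Sc (log2 −0.39, SE 0.22; limma adjusted p = 0.24). Sc/Sc replicate 3 stood above the other Sc/Sc libraries for many of the genes. PRE9, for example, was at 4021, 4096 and 4284 in N2/Ca, against 4530.5, 4614 and 6885 in Sc/Sc, and the median coefficient of variation of the 39 genes was 3.94% in N2/Ca, against 10.2% in Sc/Sc.

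The diploid count moved with single libraries and with the test. It was 6 without Sc/Sc replicate 3 and 7 with DESeq2, and without N2/Ca replicate 1, 2 or 3 it was 1, 0 and 0. For IRC25 the adjusted p was 0.055, 0.066 and 0.066 without N2/Ca replicates 1, 2 and 3. RPN14, at 564, 549.5 and 540.3 in N2/Ca against 656, 734 and 791 in Sc/Sc, was the closest to the threshold of those that did not pass (log2 −0.40, limma adjusted p = 0.052). The lid genes RPN8 and RPN9, which fell in N2 and Ca, had log2 values of −0.01 and −0.03 in N2/Ca.

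RPN4 set against the subunits library by library showed the 2 patterns side by side. In the haploids with raised RPN4, the median of the 28 subunit genes, relative to the ScNI mean, was log2 −0.33, −0.21 and −0.34 in Ca, −0.23, −0.22 and −0.24 in N2, −0.34, −0.29 and −0.28 in Sc[At] and −0.19, −0.19 and −0.17 in Sc[Sp]. It was −0.13, −0.06 and −0.05 in Sc[Ca], against −0.02, 0.04 and −0.02 in the ScNI libraries themselves. In N2/Ca it was −0.28, −0.20 and −0.23 relative to the Sc/Sc mean, against −0.07, −0.03 and 0.15 in the Sc/Sc libraries. The 4 haploid strains with more RPN4 mRNA thus had less of the median subunit mRNA. In the diploid N2/Ca, with less RPN4, the subunit median was lower too, but 0 of the 28 subunit genes passed in limma. There 14 of the 28 had an unadjusted p under 0.05, and 5.76% of all genes fell. The strain with the most RPN4 mRNA, N2, did not have the lowest subunit median. A pooled correlation was not computed because the libraries fall into separate groups by RPN4 level.

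**Figure D4:**
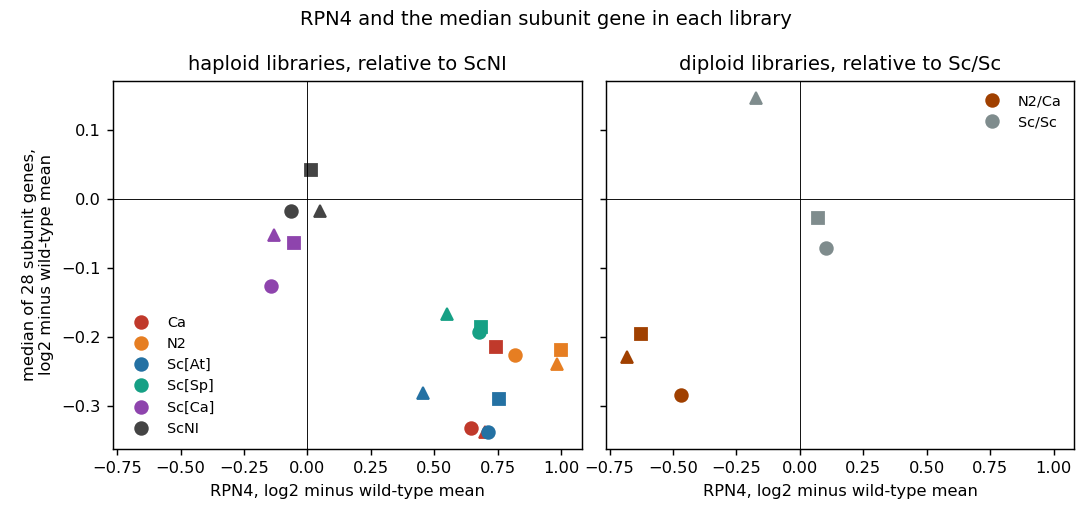
Each point is a library: RPN4 on the x axis and the median of the 28 subunit genes on the y axis, both as log2(normalised count + 1) minus the mean of the wild type of the same table (symbols as in the plot of RPN4 levels). The 12 libraries of Ca, N2, Sc[At] and Sc[Sp] lie at lower right, the 6 of Sc[Ca] and ScNI near 0, and the 3 of N2/Ca at lower left.

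Genes with and without PACE are given side by side as a description. Of the 24 genes with PACE, 20 fell in Ca, 14 in N2, 17 in Sc[At] and 12 in Sc[Sp], with medians of log2 −0.29, −0.23, −0.32 and −0.22. Of the 14 genes other than RPN4 without it, 3, 4, 2 and 2 fell in the same strains, with medians of −0.19, −0.23, −0.16 and −0.07. The 2 sets also differ in level, with medians of 4434 and 1144 normalised counts per kilobase in ScNI. They differ in make-up too, since the 9 assembly chaperones are all without PACE. The part of level or make-up was not tested. Among the subunit genes alone, the medians of the 23 with PACE were log2 −0.29, −0.23, −0.32 and −0.23 in the same strains. Those of the 5 without it were −0.26, −0.23, −0.23 and −0.09. A further 49 genes of other annotation have PACE in the same window, and 48 of them were tested. Of these 48, 5 fell and 3 rose in Ca, 7 and 7 in N2, 4 and 3 in Sc[At] and 5 and 6 in Sc[Sp], with medians of log2 −0.00, 0.04, −0.08 and −0.05. Of all genes tested, 14.2% fell and 16% rose in Ca, 12.6% and 16.5% in N2, 6.82% and 8.44% in Sc[At] and 10.9% and 10.1% in Sc[Sp].

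Proteasome genes on the raised chromosomes stood apart from the others in N2 and Ca. The 20S genes PRE4 (beta7, on VI), PRE5 (alpha6) and PRE8 (alpha2, both on XIII) complete the core whose 11 other genes are described above. PRE4 was at 7101, 7584 and 3429.9 in Ca and 5598, 7528 and 7341 in N2, against 4101, 4363 and 4192 in ScNI. PRE8 was at 4988, 5052 and 2503 in Ca and 3700.3, 5035 and 5013 in N2, against 2931, 3083 and 3010.1 in ScNI. Both were high in the libraries with raised chromosomes and low in Ca replicate 3, where the medians of VI and XIII were 0.05 and −0.01. In N2 the medians of VI were 0.50, 0.92 and 0.89 and those of XIII 0.51, 0.93 and 0.92, and in Ca replicates 1 and 2 they were 0.88 and 0.86 (VI) and 0.87 and 0.89 (XIII).

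In N2 PRE4, PRE5 and PRE8 rose (log2 0.68, 0.60 and 0.59; limma adjusted p = 0.026, 0.036 and 0.035), as did RPN12, a lid gene (0.45), UBP6, a proteasome-bound deubiquitinase gene (0.58), and BLM10, the gene of an alternative cap (1.09); RPN12, UBP6 and BLM10 lie on chromosome VI. RPN11, the deubiquitinase gene of the lid (VI), was at log2 0.55 and did not pass (limma adjusted p = 0.11). Except for BLM10, each of these increases lost the call without N2 replicate 2 or 3 or any 1 ScNI library (limma adjusted p 0.061 to 0.15). In Ca BLM10 (0.87; without Ca replicate 1 or 2 or ScNI replicate 1 or 2 the adjusted p was 0.051 to 0.086) and SPG5 rose and the other 6 did not pass. Relative to the median of their own chromosome, several of these genes were lower than in ScNI. The values in N2 were log2 −0.19 for PRE5, −0.20 for PRE8 and −0.32 for RPN12 (limma adjusted p = 0.035, 0.029 and 0.0032). Those in Ca were, for PRE5, PRE8, RPN12 and UBP6 in that order, −0.17, −0.18, −0.34 and −0.26. PRE4 and RPN11 were also below 0 but passed in neither strain (N2 −0.09 and −0.21, Ca −0.16 and −0.29). UBP6 did not pass in N2 (−0.18). BLM10 went the other way. It stayed above ScNI by log2 0.32 for N2, which passed (limma adjusted p = 0.045). Its Ca value of 0.27 did not pass (limma adjusted p = 0.074). SPG5, described next, also stayed higher. On that scale the median over the 38 genes other than RPN4 was −0.16 in N2 and −0.22 in Ca.

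SPG5 (XIII), a proteasome regulator gene of stationary phase, rose in all 4 strains. It was at 2579.5, 2405 and 1772 in Ca, 1928, 2721 and 2749.8 in N2, 1357, 1513 and 1214 in Sc[At] and 1321, 1468 and 1359 in Sc[Sp], against 882, 922 and 869 in ScNI (log2 1.32, 1.45, 0.61 and 0.63; limma adjusted p = 5.6e-05, 2.4e-05, 0.013 and 0.0092). In Sc[At] its adjusted p was 0.051 and 0.052 without Sc[At] replicates 1 and 2. With chromosome medians subtracted it still rose in Ca (0.73) and N2 (0.66). In N2/Ca SPG5 was at 1112, 701 and 743, against 542, 565 and 613 in Sc/Sc, and did not pass (log2 0.54, limma adjusted p = 0.076).

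**Figure D5:**
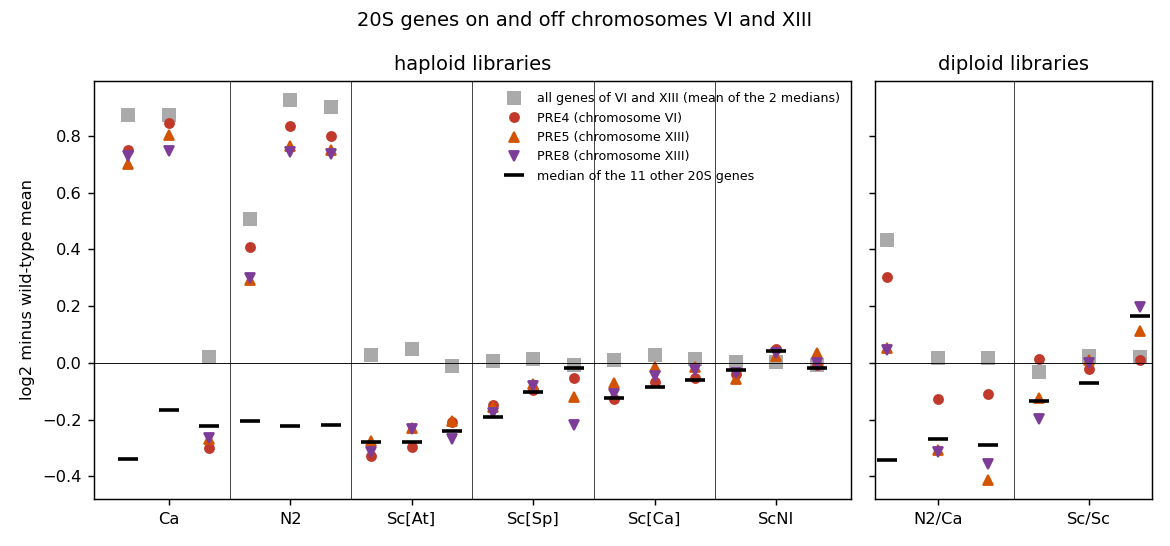
The 20S genes in each library, as log2(normalised count + 1) minus the wild-type mean: PRE4, PRE5 and PRE8 (chromosomes VI and XIII; coloured symbols), the median of the 11 other 20S genes (black bars) and the mean of the 2 chromosome medians (grey squares). In N2 and in Ca replicates 1 and 2 the coloured symbols follow the grey squares, a little below them. In Ca replicate 3 and the Sc[At] libraries they lie with the black bars. In N2/Ca replicate 1 PRE4 (0.30) lies nearer the grey square, while PRE5 and PRE8 (0.05 each) lie between it and the black bar (−0.34).

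Of 8 known regulators of RPN4, 1 rose and 1 fell in each of Ca, N2 and Sc[At], 1 rose and 2 fell in Sc[Sp], and 3 rose in N2/Ca. Of all genes, 16% rose and 14.2% fell in Ca, 16.5% and 12.6% in N2 and 8.44% and 6.82% in Sc[At]. In Sc[Sp] these shares were 10.1% and 10.9%, and in N2/Ca 8.59% and 5.76%. The counts of regulators in Ca and N2 were thus near the shares of all genes. In Sc[Ca] 0 passed in limma, edgeR and DESeq2, and 2 had an unadjusted p under 0.05 in limma. PDR3, a zinc cluster activator gene, was at 1013, 1014 and 1003 in Ca, 1248, 1083 and 1120.0 in N2, 1137, 1119 and 1118 in Sc[At] and 1171, 1107 and 1163 in Sc[Sp], against 1779.8, 2019.7 and 1810.3 in ScNI. It was at 1462, 1658 and 1486 in Sc[Ca], also below ScNI without overlap (log2 −0.28, SE 0.07; limma adjusted p = 0.95). PDR3 fell in the other 4 strains (log2 −0.89, −0.70, −0.73 and −0.70; limma adjusted p = 1.2e-05, 3.5e-05, 6.8e-05 and 7.5e-05), and its value in N2/Ca was −0.02 (0.95). PDR1, its paralogue, fell in Sc[Sp] alone among the comparisons with a wild type (1016, 967 and 1013, against 1368, 1411 and 1459 in ScNI; log2 −0.50). MSN4, a general stress activator gene, rose in Sc[At] (log2 0.53), Sc[Sp] (1.36) and N2/Ca (1.19). Its call in Sc[At] was lost without Sc[At] replicate 1 or 2 or any 1 ScNI library (limma adjusted p 0.053 to 0.13), and that in N2/Ca without N2/Ca replicate 1 or 3 (0.063 and 0.059). HSF1, the heat shock factor gene, did not pass in any, and neither did MSN2 or YAP1, both on chromosome XIII.

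MUB1 and UBR2 encode the pair that marks Rpn4 with ubiquitin. In N2/Ca MUB1 was at 1200.3, 855 and 881, against 474, 436 and 441 in Sc/Sc, and UBR2 at 815, 717 and 710.5, against 579, 528 and 512 in Sc/Sc. Both rose (log2 1.10 and 0.47; limma adjusted p = 0.0038 and 0.031), without overlap with Sc/Sc. The call of UBR2 was lost without any 1 N2/Ca library or Sc/Sc replicate 2 (limma adjusted p 0.074 to 0.11). MUB1 lies on chromosome XIII, and with chromosome medians subtracted it was still higher in N2/Ca (log2 0.93, limma adjusted p = 0.0014). In N2 and Ca MUB1 rose (log2 0.89 and 0.63; in Ca the adjusted p was up to 0.093 without 1 of Ca replicates 1 and 2 and ScNI replicates 2 and 3), but not with chromosome medians subtracted (0.10 and 0.05).

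Genes that tag proteins with ubiquitin or deliver them to the proteasome were followed in a list of 37. Of these, 12 fell and 1 rose in Ca, 9 fell and 4 rose in N2, 2 fell and 1 rose in Sc[At], 3 fell and 3 rose in Sc[Sp], 0 changed in Sc[Ca] (0 also in edgeR and DESeq2, and 0 at an unadjusted p under 0.05 in limma), and 2 fell and 2 rose in N2/Ca. These counts stand beside 14.2% lower and 16% higher of all genes in Ca, 12.6% and 16.5% in N2, 6.82% and 8.44% in Sc[At], 10.9% and 10.1% in Sc[Sp], and 5.76% and 8.59% in N2/Ca, so that the shares of the list in Sc[At] and Sc[Sp] were below those of all genes. The list's medians were log2 −0.19 in Ca, −0.08 in N2, −0.08 in Sc[At] and 0.02 in Sc[Sp]. DOA4, the gene of a deubiquitinase that recovers ubiquitin at endosomes, fell in Ca (436, 446 and 564, against 886, 853 and 807 in ScNI; log2 −0.82) and N2 (676, 414 and 459; −0.75). HRD1, the gene of a ubiquitin ligase of the endoplasmic reticulum, was at 859, 799.8 and 833 in Ca, against 1230.3, 1257 and 1202 in ScNI (log2 −0.57, limma adjusted p = 0.0022). In the diploid N2/Ca HRD1 was at 949, 935 and 909.6, against 703, 739 and 606 in Sc/Sc, and rose (0.45, 0.033; without any 1 N2/Ca library or Sc/Sc replicate 1, 0.059 to 0.14).

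In Sc[Sp] the polyubiquitin gene UBI4 rose (8243, 7572 and 8535, against 4760.4, 5431 and 4427 in ScNI; log2 0.74, limma adjusted p = 0.027) and so did TMA17, the gene of a stress-induced chaperone of ATPase-ring assembly (3024, 3478 and 2807, against 1462, 1618 and 1348 in ScNI; 1.07, 0.022). Both calls were lost without Sc[Sp] replicate 1 or 2 or any 1 ScNI library, and that of UBI4 also without Sc[Sp] replicate 3 (limma adjusted p up to 0.1). In N2/Ca the ubiquitin-conjugating genes UBC4 (7225, 7259 and 7181, against 9905, 11261 and 13792 in Sc/Sc) and UBC13 fell (log2 −0.68 and −0.65; limma adjusted p = 0.015 and 0.019), and each lost its call without any 1 N2/Ca library (0.058 to 0.095). In Sc[At] CUZ1, a gene linked to the delivery of ubiquitinated proteins (−0.46), and SHP1, a Cdc48 cofactor gene (−0.38; without Sc[At] replicate 1 or ScNI replicate 2, limma adjusted p = 0.053 and 0.064), fell. Among the genes of the list called in N2, the 4 largest changes were those of DOA4 and of DSK2, UBX2 and UBC7, which lie on chromosome XIII and rose (0.96, 0.73 and 0.59; for DSK2 the adjusted p was 0.054 to 0.076 without N2 replicate 2 or 3 or ScNI replicate 2); with chromosome medians subtracted none of these 3 passed.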

How the data were processed

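Cells were lysed with glass beads, and 500 ng of total RNA went into each stranded poly(A) library, which was amplified for 10 PCR cycles and read as single reads of 50 bases, per the labels' protocols. The submitters' processing notes list HISAT2 2.2.1, DESeq2 1.28.0 and build R64, and, for read handling, Trimmomatic 0.39, FastQC 0.11.9 and bcl2fastq 2.20.0.422. With the counting tool, annotation and strand setting not given in the sources used here, reads shared with paralogues are uncertain. No annotated R64 gene overlaps the 39.

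The values are the signal deposited by the authors: DESeq2-normalised counts in 2 tables, normalised separately, so nothing was tested across ploidy. In every library 100% of the values were whole multiples of 1 step within 0.001 reads, and each step was 1 over the library's median-of-ratios size factor; depth is the sum of the recovered reads. All 24 columns were used and 0 left out. The 3 diploid columns headed N19_Ca were taken as N2/Ca by elimination. Replicates were not copies: the chi-square per gene between them was 4.41 to 187.

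Genes with a mean of at least 10 (5808 haploid, 5727 diploid; all 39 members) were tested with limma 3.58.1 (R 4.3.3) on log2(value + 1), with the variance fitted as a trend of the mean. The 18 haploid libraries shared 1 fit and the 6 diploid ones another, and p was adjusted by Benjamini-Hochberg over all genes, with a threshold of 0.05. "Rose", "fell" and "changed" mean past that test. The test was checked on simulated data. Entries for introduced actins were left out of tests. Errors given as SE are of the fitted log2 change. Alternatives were edgeR 4.0.16 and DESeq2 1.42.0 on the recovered reads, TMM scaling, a pseudocount of 8, no filter, a replicate block, chromosome medians subtracted, 2 strains alone, N2 and Ca libraries left out, and each replicate left out. A term for replicate 2 was added after seeing the data.

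Same-numbered libraries deviated together, with a lowest correlation of 0.50 (Sc[Ca]), 0.39 (Sc[Sp]), 0.40 (Sc[At]) and 0.31 (N2) against ScNI, which is taken as pairing. The lowest was 0.06 for Ca and −0.07 for N2/Ca. Replicate 2, the MATalpha library of each haploid strain, had the highest correlation in every haploid comparison (0.51 to 0.84). Mating-type genes were included, and the part of mating type in the pairing was not tested. Members and lists were chosen with earlier results of these data known. Named genes are all members, the 8 proteasome genes on VI and XIII, the RPN4 regulators, and up to 4 of the ubiquitin list per comparison with the largest change; the genes correlated with RPN4 that the rule also asked for are not given, since RPN4 levels form separate groups.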

Additional observations from a re-analysis of the deposited data

Results flagged for a closer look

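RPN4 moved in opposite directions in the haploids and the diploid: every library was above ScNI in N2 (log2 0.93) and Ca (0.70), and every library was below Sc/Sc in N2/Ca (−0.59). The difference itself was not tested, because the tables were normalised separately. HUL4, a ubiquitin ligase gene, was higher in Sc[Sp] (log2 0.79) and N2/Ca (0.54) and lower in Ca (−0.83), without overlap in each, and HRD1 was lower in Ca (−0.57) and higher in N2/Ca (0.45); these differences were also not tested. The HUL4 call in Sc[Sp] was lost with a replicate block (limma adjusted p = 0.051) and without any 1 of the 6 libraries (0.075 to 0.13), that in N2/Ca with the block (0.056) and in 5 of the 6 fits with 1 library left out (0.089 to 0.2), and that in Ca in 4 of 6 (0.068 to 0.095). The HRD1 call in N2/Ca was lost in 4 of 6 (0.059 to 0.14).

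Differences between strains in their effect passed a direct test in 2 cases. Ca and Sc[Ca] differed for 17 of the 39 genes, a share close to the 39.7% of all genes that did, and among them was RPN4 (log2 0.81). Lower in Ca were 16 of the 39, where 19% of all genes were. Sc[At] was below Sc[Sp] for PUP3 (−0.22), PRE10 (−0.25) and RPN7 (−0.20). In that comparison 5.25% of all genes were lower and 13.5% passed in either direction, so that the share of the 39 called was below that of all genes in either direction.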

How the results depend on the processing

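The 4 haploid increases of RPN4 kept their direction and passed under all 15 or 16 alternatives of each comparison, with log2 0.66 to 0.76 in Ca, 0.90 to 1.00 in N2, 0.58 to 0.73 in Sc[At] and 0.60 to 0.68 in Sc[Sp]; the decrease in N2/Ca was −0.68 to −0.54, with adjusted p up to 0.085. Of 80 calls among the 39 genes, edgeR kept 78, DESeq2, TMM scaling, a pseudocount of 8 and no filter each 80, the term for replicate 2 75 of 78, the 2 strains alone 56 and chromosome medians subtracted 58. Counts of lower genes moved with chromosome medians subtracted (N2 11; Ca against Sc[Ca] 11 called; Sc[At] against Sc[Sp] 7), in the 2 strains alone (Ca 1) and with DESeq2 (N2/Ca 7; Sc[At] against Sc[Sp] 8). NAS6 joined RPN4 as higher in Sc[Sp], for 2 in all, in the 2 strains alone and without the N2 and Ca libraries; the cause was not tested. With each replicate left out, lower genes numbered 13 to 28 in Ca, 8 to 19 in N2, 12 to 21 in Sc[At], 2 to 8 in Sc[Sp] and 0 to 6 in N2/Ca, higher genes 1 to 2 in Ca (PBA1 added), and members called 10 to 18 for Ca against Sc[Ca] and 0 to 3 for Sc[At] against Sc[Sp]; fewer libraries enter these fits, and a group of 2 shares the spread of the others. With a replicate block, 12 genes were lower in Sc[Sp], 19 in Sc[At], 17 in N2, 22 in Ca and 2 in N2/Ca, 26 differed among the haploid strains, 2 between Sc[At] and Sc[Sp] and 16 between Ca and Sc[Ca]; the calls of RPN5 and RPT1 in Sc[Sp] and RPN8 in N2 were lost, as were, in comparisons whose numbers did not pair, PUP2 in Ca (adjusted p = 0.054) and HUL4 in N2/Ca (0.056), and HUL4 in Sc[Sp] (0.051); no other named call against a wild type changed. With chromosome medians subtracted, 7 of the N2 increases on VI and XIII turned negative, since the subtraction removes their chromosome's shift. They were UBP6 −0.18, PRE4 −0.087, RPN12 −0.32, PRE8 −0.20, PRE5 −0.19, UBX2 −0.060 and UBC7 −0.20. The increases of BLM10, SPG5, DSK2 and MUB1 stayed positive (0.32, 0.66, 0.17 and 0.10). In the haploid fit the SE of the log2 change of the 39 genes ranged up to 0.18 (NAS2), against 0.06 for PUP2. In the diploid fit that of POC4 was larger. The part of depth in this was not tested.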
